A study of Mus musculus with 12 samples.

Results

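The regulators of G protein signaling (RGS) described here are 10 genes, Rgs1, Rgs2, Rgs3, Rgs9, Rgs10, Rgs12, Rgs14, Rgs16, Rgs18 and Rgs19. They were found by matching the Ensembl identifiers of the count table to these symbols, and they are 10 of its 51826 genes. Each symbol matched a single row. Their RNA was measured in 12 pro-/pre-B cell lines grown from the bone marrow of 2 C57BL/6 mice. The marrow cells had been cultured for 7 days with interleukin 7 (IL7), the cytokine that B cell precursors need in culture, and were then transduced with the retroviral vector pMIG, either empty (EV) or carrying BCR-ABL1, the fusion kinase of Philadelphia chromosome-positive leukemia. Each mouse gave 3 lines per condition, so that there were 6 EV and 6 BCR-ABL1 lines, named by mouse and letter from 1A to 2C. All lines stayed in IL7 for 48 h. The BCR-ABL1 lines then grew without the cytokine over 1 week, until they were transformed, and the EV lines continued in IL7 and were later sorted for GFP, which the vector encodes. BCR-ABL1, the absence of IL7 and the absence of a GFP sort therefore coincided in every line and cannot be told apart, and all values rest on the marrow of 2 animals.

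Receptors of the G protein-coupled class activate heterotrimeric G proteins by loading the alpha subunit with GTP, and the signal lasts until the alpha subunit hydrolyses it. RGS proteins speed this hydrolysis, so they shorten signals from chemokine, lipid and other receptors. In B lymphocytes they are known for setting how strongly cells respond to chemokines such as CXCL12, the ligand of CXCR4. The members fall into subfamilies. Rgs1, Rgs2, Rgs3, Rgs16 and Rgs18 belong to the R4 subfamily of small proteins, Rgs9 to the R7 subfamily, Rgs10, Rgs12 and Rgs14 to the R12 subfamily and Rgs19 to the RZ subfamily.

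Total counts per line lay between 34791011 and 66011225, and levels are given as CPM, the counts of a gene per 1000000 counts of its TMM-scaled library. All 12 B lineage markers were detected in the lines, with a summed level between 2950 and 5526 CPM (EV) and between 3273 and 4275 CPM (BCR-ABL1), and 1 of them, Dntt, was called higher in BCR-ABL1 lines. The marker lists of myeloid, T and NK, mast and stromal cells and of megakaryocytes each summed to at most 3.68 CPM in any line. The 5 erythroid markers summed to between 1.28 and 6.75 CPM (EV) and between 5.87 and 12.6 CPM (BCR-ABL1), most of it from Hbb-bt, which was called higher, while Hba-a1 was at 0. The marker genes named were chosen after their values were seen, and the part of other cell types in the Rgs levels was not tested. EV lines 2A and 2B stood apart in having counts on 36123 and 28517 genes, against 20235 to 25143 in the other lines. The biological coefficient of variation was 0.386 among the EV lines of mouse 2, against 0.0844 to 0.103 in the other groups of 3 lines. In bulk RNA a lower level can come from fewer cells of a type or from less RNA per cell, and these cannot be told apart.

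Rgs1 was the only member called changed by the test over all lines without a term for mouse, which asks for a difference beyond 1.5-fold at a Benjamini-Hochberg adjusted p (FDR) below 0.05 in edgeR's quasi-likelihood fit. Of the 10 members, 9 passed the filter on low counts, 1 was called higher and 0 were called lower in BCR-ABL1 lines. Across all 15038 genes tested, 5.99% were called higher and 6.49% lower, and the median log2 fold change was -0.02. With mouse as replicate block Rgs2 was also called lower, at an FDR of 0.0214 in edgeR. At an unadjusted p below 0.05 of the test without the block, 2 members, Rgs2 and Rgs12, were lower, and the likelihood ratio fit and DESeq2 also called 1 member higher and 0 lower. On the TMM-scaled level the conditions did not overlap for 3 members. Rgs1 and Rgs19 were higher in every BCR-ABL1 line, as were 12.1% of all genes tested, and Rgs12 was lower in every BCR-ABL1 line, as were 13.5%. On CPM of total counts only Rgs1 was higher in every BCR-ABL1 line, as were 10.1% of all genes, and Rgs2 in place of Rgs12 was lower in every BCR-ABL1 line, as were 14.8%, so that the separation of Rgs2, Rgs12 and Rgs19 depends on the scaling. More members differed in the size or direction of their change between the mice, which is described after the single genes.

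**Figure D1:**
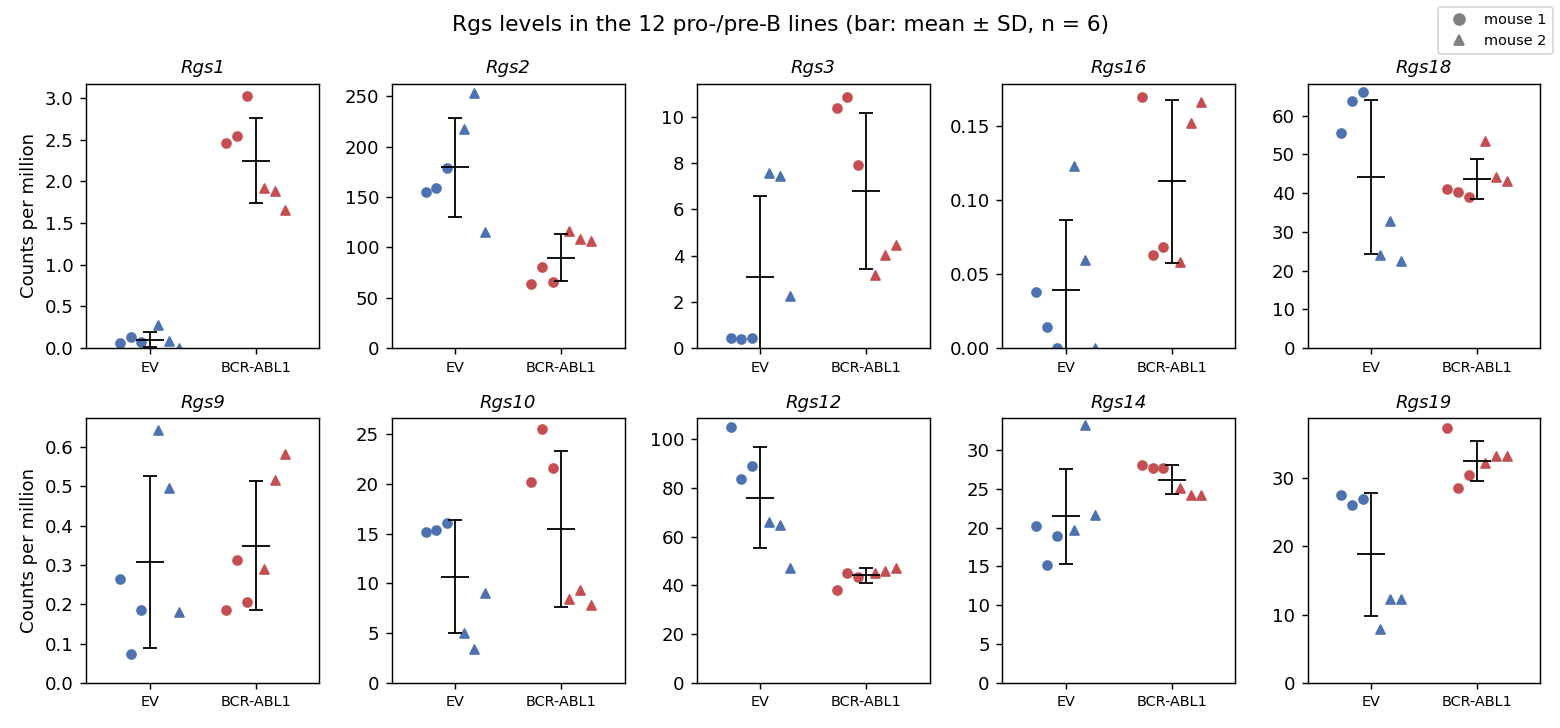
Level of each member in CPM on a linear axis that starts at 0, with EV lines in blue and BCR-ABL1 lines in red, circles for mouse 1 and triangles for mouse 2. Bars mark the mean and SD of 6 lines. Rgs1 lay between 1.66 and 3.02 CPM in BCR-ABL1 lines and at 0.276 CPM or less in EV lines, whereas Rgs10 was separated by mouse in both conditions.

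Rgs1, a regulator of Gi and Gq that restrains chemokine responses of B cells, was almost silent in EV lines and low in BCR-ABL1 lines. It had 0 to 9 counts per EV line, or 0 to 0.276 CPM with a median of 0.0781, and 80 to 145 counts per BCR-ABL1 line, or 1.66 to 3.02 CPM with a median of 2.19. Every BCR-ABL1 line was above every EV line, and EV line 2C held none of its reads. The mean rose from 0.103 ± 0.0945 to 2.25 ± 0.513 CPM (SD, n = 6 each), a 21.8-fold ratio of means. The difference in mean log2 CPM was 4.27 (SE 0.43), the fitted log2 fold change was 4.51, the FDR was 0.000164, and the exact permutation test over all labelings of the lines gave p = 0.00216, the smallest it can give. Rgs1 passed the filter through the BCR-ABL1 group, in which it was high. It was called in the lines of each mouse alone, with log2 fold changes of 4.86 and 4.13 and FDRs of 2.6e-07 and 0.0412. The 3 genes whose pattern over the 12 lines was nearest, measured as the mean absolute difference of centred log2 CPM, were Hopx at 0.26, Gm10384 at 0.26 and Gm5373 at 0.28. Hopx encodes a small homeodomain protein that does not bind DNA.

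Rgs2, a regulator with a preference for Gq, was the most abundant member in EV lines per transcript length and was lower on average in BCR-ABL1 lines. It spanned 115.1 to 253.0 CPM in EV lines with a median of 168.9, and 63.2 to 116.1 CPM in BCR-ABL1 lines with a median of 93.4. The conditions overlapped by a single pair of lines, since EV line 2C at 115.1 CPM lay just under BCR-ABL1 line 2A at 116.1 CPM. On total counts they did not overlap, with at least 114.8 CPM in EV and at most 111.4 CPM in BCR-ABL1 lines, and the exact permutation p was 0.00216. Means were 179.7 ± 49.1 and 89.9 ± 23.1 CPM (SD, n = 6 each), with a difference in mean log2 CPM of -0.996 (SE 0.23). It missed the threshold at an FDR of 0.0667, whereas the exact permutation test, which asks for any difference, gave p = 0.00433. In the fit with mouse as replicate block, where Rgs2 was called lower, 7.49% of all genes tested were called higher, among them Rgs1, and 7.18% lower. The call was also made without EV line 2C, at an FDR of 0.0185, and without BCR-ABL1 line 2A, at an FDR of 0.0439.

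Rgs3, which acts on Gi and Gq and can bind beta-gamma dimers, was higher in BCR-ABL1 lines of mouse 1 and not shown to change in mouse 2. EV lines of mouse 1 had 0.433, 0.375 and 0.445 CPM, and EV lines of mouse 2 had 7.58, 7.45 and 2.25 CPM. BCR-ABL1 lines of mouse 1 had 10.4, 10.9 and 7.91 CPM, and those of mouse 2 had 3.14, 4.05 and 4.46 CPM. The EV lines of mouse 1 were thus the only group with a very low level, 13.8-fold below the EV lines of mouse 2, while the BCR-ABL1 lines of mouse 1 were 2.50-fold above those of mouse 2. Over all lines the difference in mean log2 CPM was 2.01 (SE 0.88), the fitted log2 fold change was 1.15, the FDR was 0.659 and the exact permutation p was 0.0563. In mouse 1 it was 4.54 and in mouse 2 it was -0.56, and the difference of -5.10 between them had an FDR of 0.000115 in the interaction test. In the lines of mouse 2 alone the FDR was 0.959, and EV line 2C lay below the 3 BCR-ABL1 lines. With EV lines 2A and 2B left out together, Rgs3 was called higher over the remaining lines at a log2 fold change of 2.95 and an FDR of 0.0123. These were the EV lines with the highest Rgs3, and leaving them out was chosen after seeing the data. The fit had no term for mouse, and all remaining EV lines but 2C were the low ones of mouse 1. The call therefore does not show a change in mouse 2.

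Rgs16 and Rgs18 complete the R4 subfamily. Rgs16, which limits Gi and Gq signals after activation of lymphocytes, had 0 to 4 counts per EV line and 3 to 10 per BCR-ABL1 line, and it did not pass the filter. The EV range of 0 to 0.123 CPM overlapped the BCR-ABL1 range of 0.0578 to 0.170 CPM, and the exact permutation test gave p = 0.0260. At these counts, most of which are at or near the floor of 3 counts per line, Rgs16 was barely detected in either condition.

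Rgs18, a regulator of Gi and Gq known from platelets and their precursors, had almost the same mean in both conditions, 44.2 ± 19.97 CPM in EV and 43.6 ± 5.20 CPM in BCR-ABL1 lines (SD, n = 6 each). The equal means hid a split by mouse. EV lines of mouse 1 had 55.5, 63.9 and 66.1 CPM and those of mouse 2 had 24.1, 32.9 and 22.6 CPM, whereas the 6 BCR-ABL1 lines lay between 39.1 and 53.5 CPM, in the gap between the EV groups. In mouse 1 the log2 change was -0.62 and in mouse 2 it was 0.82, with a difference of 1.44 at an FDR of 0.000563. The 7 megakaryocyte and platelet markers summed to at most 3.68 CPM in EV lines and at most 1.76 CPM in the others. Itga2b, most of that sum, was called lower in BCR-ABL1 lines, and Pf4, Ppbp and Treml1 were at or below 3 counts in every line.

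Rgs9, an R7 member known from photoreceptors and striatal neurons that works with the beta subunit Gnb5, was at the edge of detection. It had 5 to 25 counts per EV line and 9 to 34 per BCR-ABL1 line, or 0.307 ± 0.218 and 0.349 ± 0.164 CPM (SD, n = 6 each). The ranges overlapped and the exact permutation test gave p = 0.491. Gnb5 did not pass the filter.

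In the R12 subfamily, Rgs10, a small regulator of Gi, separated the mice. The conditions overlapped over all lines and in mouse 2 but not in mouse 1. EV lines had between 15.2 and 16.1 CPM in mouse 1 and between 3.38 and 9.03 CPM in mouse 2. BCR-ABL1 lines had between 20.2 and 25.5 CPM in mouse 1 and between 7.82 and 9.34 CPM in mouse 2. Every mouse 1 line was above every mouse 2 line, a pattern shown by 1 of the 9 members tested and by 1.06% of all genes tested. The reverse order was shown by 0 of the 9 members and 1.62% of all genes. The ratio between the mice was 2.67 in EV and 2.63 in BCR-ABL1 lines. Between the conditions the difference in mean log2 CPM was 0.59 (SE 0.50) at an FDR of 0.955, and the fitted log2 fold change was 0.53 in mouse 1 and 0.55 in mouse 2. With mouse as replicate block the FDR against the 1.5-fold margin was 0.864. When labels were exchanged only within a mouse, the exact permutation test gave p = 0.015, against p = 0.268 over all labelings.

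Rgs12, a large regulator with a PDZ domain and a GoLoco motif that binds inactive Gi, was lower on average in BCR-ABL1 lines. It spanned 47.2 to 105.2 CPM in EV lines with a median of 74.9, and 38.3 to 47.0 CPM in BCR-ABL1 lines with a median of 45.1. The margin between the conditions was narrow, since EV line 2C at 47.17 CPM lay just above BCR-ABL1 line 2C at 47.00 CPM. On total counts their order turned, with 47.07 CPM in the EV line and 47.33 CPM in the BCR-ABL1 line, and the exact permutation p was 0.00433. Means were 76.0 ± 20.7 and 44.1 ± 3.11 CPM (SD, n = 6 each), and the exact permutation test gave p = 0.00216. The difference in mean log2 CPM was -0.74 (SE 0.17). The fitted log2 fold change of -0.78 had an FDR of 0.196 against the 1.5-fold margin, and an FDR of 0.0233 without EV line 2C. In mouse 1 the change was -1.13 and in mouse 2 it was -0.36, and the difference of 0.77 had an FDR of 0.0150. The spread across EV lines was wide while the BCR-ABL1 lines of both mice converged on a narrow range. An antisense gene, Gm43791, overlaps exons of Rgs12 over 467 bases, and whether the counting used strand is not given in the sources used here.

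Rgs14, which carries a GoLoco motif and binds Ras proteins as well as Gi, changed little. It spanned 15.2 to 33.2 CPM in EV lines with a median of 20.01, and 24.2 to 28.2 CPM in BCR-ABL1 lines with a median of 26.4. Only EV line 2B, at 33.2 CPM, lay above the BCR-ABL1 lines, and the other EV lines were all below them. The log2 fold change of 0.28 had an FDR of 1 and an exact permutation p of 0.0693. The change was 0.62 in mouse 1 and -0.02 in mouse 2, and the difference between them had an FDR of 0.102.

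Rgs19, also called GAIP, acts on Gi and Gz. On the TMM-scaled level it was higher in every BCR-ABL1 line. These lay between 28.5 and 37.3 CPM, whereas EV lines had 27.5, 26.1 and 26.9 CPM in mouse 1 and 7.82, 12.3 and 12.2 CPM in mouse 2. The BCR-ABL1 lines of both mice were alike at 32.1 ± 4.59 and 32.9 ± 0.582 CPM (SD, n = 3 each), and it was the EV lines of mouse 2 that lay apart. Over all lines the difference in mean log2 CPM was 0.94 (SE 0.32), the fitted log2 fold change was 0.79, the FDR against the 1.5-fold margin was 0.393 and the exact permutation test gave p = 0.00216. On total counts the conditions overlapped, since the EV lines of mouse 1 reached 29.9 CPM and BCR-ABL1 line 1B had 27.6 CPM, and the exact permutation p was 0.0173. The change was 0.26 in mouse 1 and 1.61 in mouse 2, and the difference of 1.35 had an FDR of 0.00172.

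Within each mouse, different members passed the test. In the lines of mouse 1 alone, Rgs1 and Rgs3 were called higher, where 16.3% of all genes tested were, and Rgs2 and Rgs12 were called lower, where 12.2% were. In the lines of mouse 2 alone, Rgs1 and Rgs19 were called higher, where 3.99% of all genes were, and 0 of the 9 members tested were called lower by glmTreat, at an adjusted or an unadjusted p, where 2.65% of all genes were called. The test of the difference itself, the interaction of mouse and condition, was passed by 4 of the 9 members tested, Rgs3, Rgs12, Rgs18 and Rgs19, and by 16.9% of all genes tested. Rgs2 was not among them (FDR 0.455), and its change of -1.23 in mouse 1 and -0.83 in mouse 2 was not shown to differ. The 4 calls were made again when any single line was left out, and Rgs14 joined them without EV line 2A or EV line 2C. With EV lines 2A and 2B left out together, 8 of the 9 members and 36% of all genes tested passed, but EV line 2C then stands alone for mouse 2 and is assumed to vary like the other groups. Against no change in place of the 1.5-fold margin, Rgs1 and Rgs19 were called higher, where 22.5% of all genes tested were, and Rgs2 and Rgs12 lower, where 25.9% were.

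**Figure D2:**
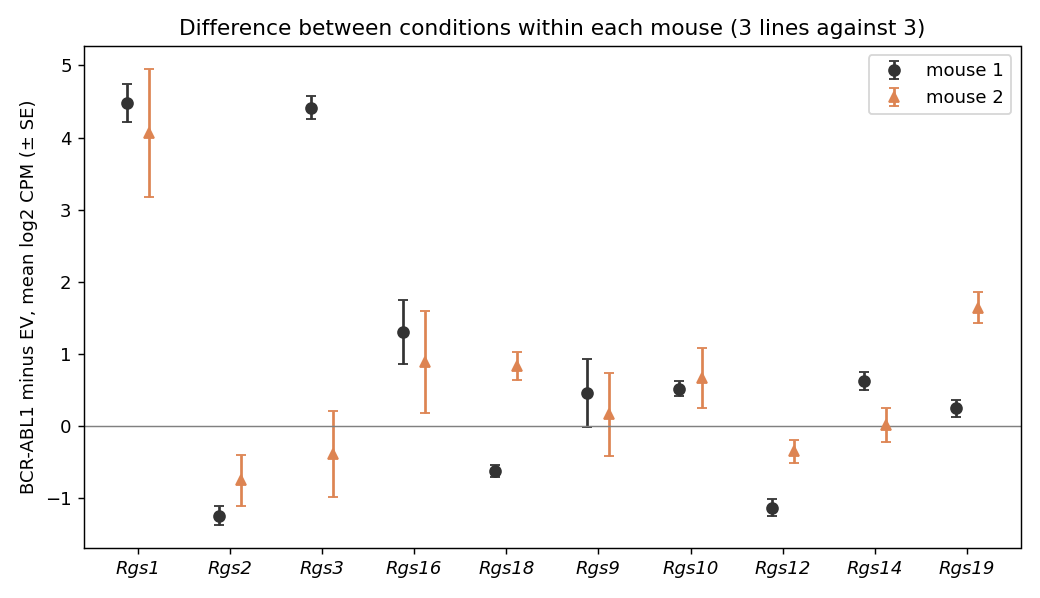
Difference in mean log2 CPM, BCR-ABL1 minus EV, of each member in the lines of mouse 1 (circles) and of mouse 2 (triangles), with the SE from 3 lines against 3. A value of 0 is no difference. Rgs1 lay above 0 in both mice and Rgs2 and Rgs12 below 0 in both, while Rgs18 changed sign and Rgs3 rose in mouse 1 and not in mouse 2.

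By the median, over the members and over all genes, the mice differed more in their EV lines than in their BCR-ABL1 lines. Among EV lines, the absolute difference in mean log2 CPM between the mice had a median of 1.15 over the 9 members tested, beside 0.27 over all genes tested, and it exceeded 1 for 5 members and for 14.7% of all genes. The median of 1.15 is the value of Rgs9, which had 5 to 25 counts per EV line and is also among the 5 members. Among BCR-ABL1 lines the median was 0.54 over the members, beside 0.16 over all genes, and it exceeded 1 for 2 members, Rgs3 and Rgs10, and for 7.28% of all genes. Rgs18 and Rgs19 show this most plainly, with EV lines 2.33-fold and 2.49-fold higher in mouse 1 than in mouse 2, and BCR-ABL1 lines at ratios of 0.856 and 0.975. Rgs1 and Rgs2 went the other way, at absolute differences of 0.13 and 0.18 in EV lines and 0.54 and 0.66 in BCR-ABL1 lines. Rgs10 was similar in both, at 1.53 and 1.39. Whether the larger spread of the EV lines of mouse 2 has a part in the larger difference among EV lines was not tested.

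Levels of different genes can be compared only per transcript length, for which CPM was divided by the merged exon length in kilobases (RPKM). On this scale the EV lines were led by Rgs2 at 49.5 ± 13.5 RPKM and Rgs18 at 21.8 ± 9.83 RPKM, followed by Rgs12 at 8.96 ± 2.44, Rgs19 at 8.44 ± 4.02, Rgs10 at 6.24 ± 3.30 and Rgs14 at 5.07 ± 1.45 RPKM (SD, n = 6 each). The last 4 of these did not differ from their neighbours in the order beyond their spread, and Rgs3, Rgs9, Rgs16 and Rgs1 followed at 0.286 RPKM or less. In BCR-ABL1 lines Rgs2 at 24.8 ± 6.37 RPKM and Rgs18 at 21.4 ± 2.56 RPKM lay within their spread of each other, and Rgs19 at 14.6 ± 1.33 RPKM came next. Rgs10 at 9.04 ± 4.57, Rgs14 at 6.17 ± 0.443 and Rgs12 at 5.20 ± 0.366 RPKM came after them, and Rgs3, Rgs1, Rgs9 and Rgs16 were at 0.630 RPKM or less. Rgs1, although 21.8-fold higher by its ratio of means, remained at 0.324 ± 0.0738 RPKM, a small part of the members' RNA. With the longest transcript in place of merged exons, Rgs19 at 21.5 ± 1.96 RPKM was level with Rgs18 at 21.4 ± 2.56 RPKM in BCR-ABL1 lines.

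The members' RPKM summed to 100.4 ± 19.6 in EV lines, with a range of 64.5 to 118, and to 82.3 ± 4.55 in BCR-ABL1 lines, with a range of 76.4 to 89.6. Rgs2 held 49.9% of this sum in EV lines and 29.9% in BCR-ABL1 lines, and its lowest EV share of 39.3% was above its highest BCR-ABL1 share of 35.7%. Rgs19 held 8.27% in EV and 17.8% in BCR-ABL1 lines, also without overlap. The shares of Rgs12, at 8.90% and 6.33%, and of Rgs1, at 0.0146% and 0.398%, did not overlap either. The share of Rgs18 was 21.1% and 26.01%, that of Rgs10 was 6.25% and 11.2%, and that of Rgs14 was 5.26% and 7.54%. In BCR-ABL1 lines Rgs10 held 16.5% in mouse 1 and 5.86% in mouse 2, and Rgs2 held 24.2% and 35.6%, both in the same order of the mice as in EV lines. For Rgs18 the order turned, from 27.1% in mouse 1 and 14.99% in mouse 2 among EV lines to 24.9% and 27.1% among BCR-ABL1 lines. It also turned for Rgs1, Rgs3, Rgs12 and Rgs14. Shares are parts of a whole, so a smaller part of Rgs2 leaves more for the rest. The share of Rgs18 thus rose while its mean was 21.8 RPKM in EV and 21.4 RPKM in BCR-ABL1 lines. Shares also depend on the transcript length assumed. With the longest transcript in place of merged exons Rgs2 held 46.4% in EV lines and 26.7% in BCR-ABL1 lines. In BCR-ABL1 lines Rgs19 then held 19.4%, Rgs18 19.3% and Rgs10 15.8%, so the lead of Rgs18 over Rgs19 depends on the length used.

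**Figure D3:**
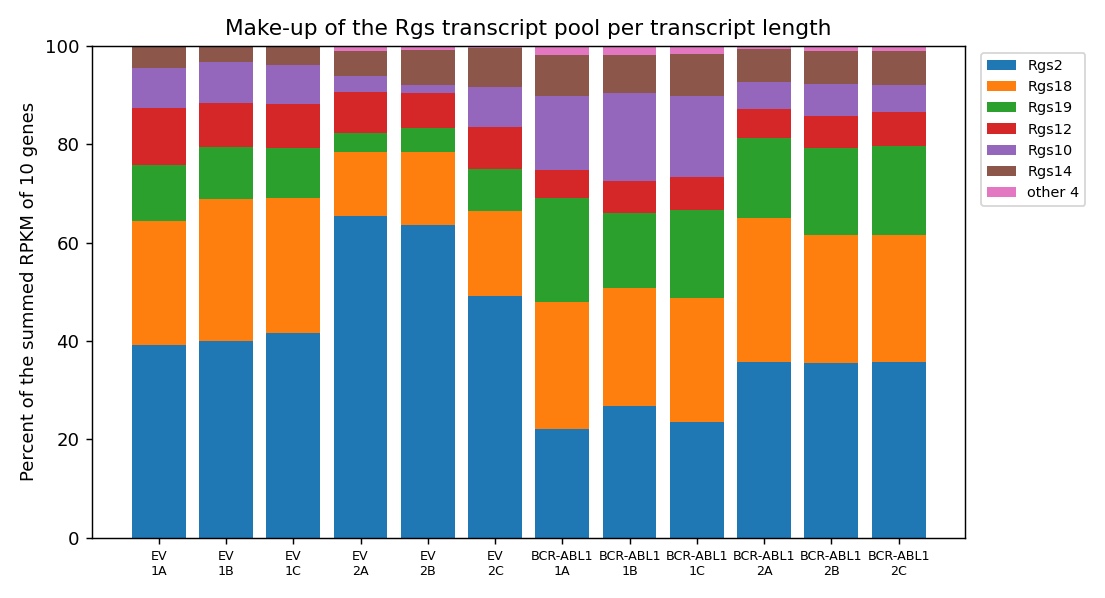
Share of each member in the summed RPKM of the 10 genes, in percent, as 1 stacked bar per line, with Rgs1, Rgs3, Rgs9 and Rgs16 added up as the other 4. Rgs2 took 39.3% to 65.5% in EV lines and 22.1% to 35.7% in BCR-ABL1 lines, where Rgs19 took a larger share.

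Promoter windows were looked up for the members, and the RefSeq table of GRCm38.p6 held 11 windows for 7 of the 10 members. Rgs2 and Rgs12, the members called lower in the lines of mouse 1 alone, were among these 7. No window was held for Rgs1, Rgs14 and Rgs18, so the promoter of Rgs1, the member called higher over all lines, was not searched. The 250 bases before each start were searched on both strands for the STAT motif TTCNNNGAA, the forkhead motif TGTTTAC, the AP-1 motif TGANTCA and the CRE motif TGACGTCA. Of 32851 windows of all genes, 7.02%, 3.17%, 6.75% and 1.55% held them. Among the 11 windows of the members there was 1 match, the AP-1 motif at the downstream start of Rgs12, whose first base lies 22 bases before the start. The downstream start of Rgs12 and the upstream one are shown with that of Rgs2, 5′ to 3′ on the strand of the gene, with the match in capitals.
Rgs12, upstream start, chr5:34949198-34949447, plus strand: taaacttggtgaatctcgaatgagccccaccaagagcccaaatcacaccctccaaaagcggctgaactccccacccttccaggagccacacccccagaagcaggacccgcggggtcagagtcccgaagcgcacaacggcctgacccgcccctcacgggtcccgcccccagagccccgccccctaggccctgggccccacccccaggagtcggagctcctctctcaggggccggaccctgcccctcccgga
Rgs12, downstream start, chr5:34998828-34999077, plus strand: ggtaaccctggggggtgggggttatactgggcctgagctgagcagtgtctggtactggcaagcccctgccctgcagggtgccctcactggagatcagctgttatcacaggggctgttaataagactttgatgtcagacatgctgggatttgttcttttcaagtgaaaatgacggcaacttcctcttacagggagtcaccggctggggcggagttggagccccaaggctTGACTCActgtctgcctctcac
Rgs2, chr1:144004150-144004399, minus strand: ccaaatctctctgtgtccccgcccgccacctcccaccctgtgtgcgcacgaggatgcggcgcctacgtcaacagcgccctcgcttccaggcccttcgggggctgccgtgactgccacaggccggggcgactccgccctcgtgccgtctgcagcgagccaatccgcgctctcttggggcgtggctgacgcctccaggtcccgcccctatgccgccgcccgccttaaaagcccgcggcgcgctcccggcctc
A match is a run of letters and not a shown binding site, and the counts per gene do not separate the starts of Rgs12.

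On the GRCm38 assembly 4 members lie on chromosome 1, where Rgs2 spans 143999338 to 144004161, Rgs1 144242296 to 144249242, Rgs18 144752683 to 144775435 and Rgs16 153740349 to 153745468. The cluster of Rgs2, Rgs1 and Rgs18 also holds Rgs13 and Rgs21, neither of which passed the filter. Within it only Rgs1 was called. Of the nearest protein-coding neighbours of the 10 members, 11 passed the filter and 0 were called by glmTreat or DESeq2, whereas 1, Rgs8, was called by the likelihood ratio fit and had an unadjusted p below 0.05 by glmTreat. Rgs8, 40025 bases from Rgs16, had a log2 fold change of 2.61 at an FDR of 0.0565, with 0.727 ± 0.677 CPM in EV and 4.50 ± 1.59 CPM in BCR-ABL1 lines (SD, n = 6 each). Every BCR-ABL1 line was above every EV line, as for 12.1% of all genes tested. Rgs8 had 88, 90 and 62 counts in the EV lines of mouse 1 and 11, 6 and 0 in those of mouse 2, so the size of its change rests in part on few counts.

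The rest of the family was sparse. Of 11 other Rgs genes in the table, only Rgs8 passed the filter, and 9 had at most 40 counts in every line. Rgs5, known from pericytes, was the exception, with 94.7 CPM in EV line 2B, 7.48 CPM in EV line 2A and 0.307 CPM or less in the other 10 lines. The 4 stromal markers summed to 1.73 CPM in EV line 2B and to 1.23 CPM in EV line 2A, against 0.0418 to 0.546 CPM in the other lines. Most of the sum in EV line 2B came from Cdh5 at 1.57 CPM, and Pdgfrb reached at most 0.337 CPM in any EV line. Which cells carried the Rgs5 reads was not tested. On the list of other Rgs family and RGS-like genes, which also holds genes for RGS-binding proteins, 9 genes were tested. Of these, 1 was called higher and 2 lower, beside 5.99% and 6.49% of all genes tested. Rgs7bp fell by 4.88 on the log2 scale (FDR 9.6e-05) and Rgs9bp fell by 1.45 (FDR 0.00337). Rgs7bp and Rgs9bp are membrane anchors of R7 proteins. Axin2, a Wnt target with an RGS-like domain, rose by 5.23 (FDR 0.000859).

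Genes that act upstream and downstream of the members were taken from lists of G protein signaling, of which 81 genes passed the filter, with 15 called higher and 6 lower, beside 5.99% and 6.49% of all genes tested. Of these 81 genes, 22 passed the test of the interaction of mouse and condition, beside 16.9% of all genes tested. Of 10 G alpha genes tested, 1 was called higher and 1 lower. The targets of most members, Gnai2 and Gnai3, were abundant and not called, at 181 ± 23.3 and 154 ± 12.3 CPM in EV and 164 ± 10.1 and 189 ± 15.5 CPM in BCR-ABL1 lines (SD, n = 6 each). Gna13, a G12-class subunit, and Gnas, which activates adenylyl cyclase, were not called either, with log2 fold changes of 0.18 and -0.45. Gna11, a Gq-class subunit, fell by 1.44 (FDR 0.00109), from 31.5 to 68.6 CPM in EV lines to 17.9 to 19.3 CPM in BCR-ABL1 lines. Its log2 change was -1.78 in mouse 1 and -0.99 in mouse 2, with an interaction FDR of 0.00382. Gnat2, the cone transducin, rose by 1.44 (FDR 0.0418) at less than 1 CPM in every line.

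Gnaq, a target of Rgs2, had a change that differed between the mice. Its EV lines had 7.87, 9.69 and 9.31 CPM in mouse 1 and 29.6, 27.1 and 34.4 CPM in mouse 2, and its BCR-ABL1 lines lay between 19.6 and 28.4 CPM. The log2 change was 1.23 in mouse 1 and -0.19 in mouse 2, with an interaction FDR of 0.000296. Gna15, the hematopoietic Gq-class subunit, which was chosen after its values were seen, had a like split with 0.116 to 0.154 CPM in EV lines of mouse 1, 7.90 to 29.6 CPM in EV lines of mouse 2 and 18.3 to 30.8 CPM in BCR-ABL1 lines. Its interaction FDR was 1.2e-05. These genes and Rgs3 had in common that the EV lines of mouse 1 were the low group.

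Among 8 beta and gamma genes tested, 3 were called higher, beside 5.99% of all genes tested. Gng4 rose by 6.65 (FDR 2.1e-05), Gng2 by 6.38 (FDR 0.000534) and Gng10 by 1.59 (FDR 0.00907) on the log2 scale. Gng4 had 0 to 7 counts per EV line. Gng2 had a median of 0.0455 CPM in EV lines, with 43 of its 58 counts there in a single line. Both passed the filter through the BCR-ABL1 group, and the size of their changes rests on EV levels near the floor. Among 22 chemokine and lipid receptors tested, 6 were called higher and 2 lower, beside 5.99% and 6.49% of all genes tested. The interaction of mouse and condition was passed by 2 of the 8 beta and gamma genes, Gng2 among them. It was passed by 10 of the 22 receptors, beside 16.9% of all genes tested. The sphingosine 1-phosphate receptor S1pr3 rose by 6.43 on the log2 scale, Ptafr, the receptor for platelet-activating factor, by 5.80, and the lysophosphatidylserine receptor Gpr34 by 4.23. Cxcr4, the receptor for CXCL12, fell by 1.08 on the log2 scale (FDR 0.00185), from 217 ± 29.1 to 103 ± 14.2 CPM (SD, n = 6 each), and the conditions did not overlap. S1pr2, another receptor of the class of S1pr3, fell by 1.53 (FDR 0.0246).

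Of 19 effectors tested, 4 were called higher and 1 lower, beside 5.99% and 6.49% of all genes tested. The adenylyl cyclase Adcy6 rose by 6.25, the guanine nucleotide exchange factor Arhgef12 by 3.55 and the phosphoinositide 3-kinase subunit Pik3r6 by 2.88 on the log2 scale. None of the 7 receptor kinases and arrestins tested and none of the 6 GoLoco and RIC8 genes tested was called by glmTreat, the likelihood ratio fit or DESeq2. At an unadjusted p below 0.05 of glmTreat, 1 of the former (Grk4, chosen after its values were seen) and 0 of the latter differed. The median log2 fold change was 0.15 over the kinases and arrestins and -0.02 over the GoLoco and RIC8 genes.

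**Figure D4:**
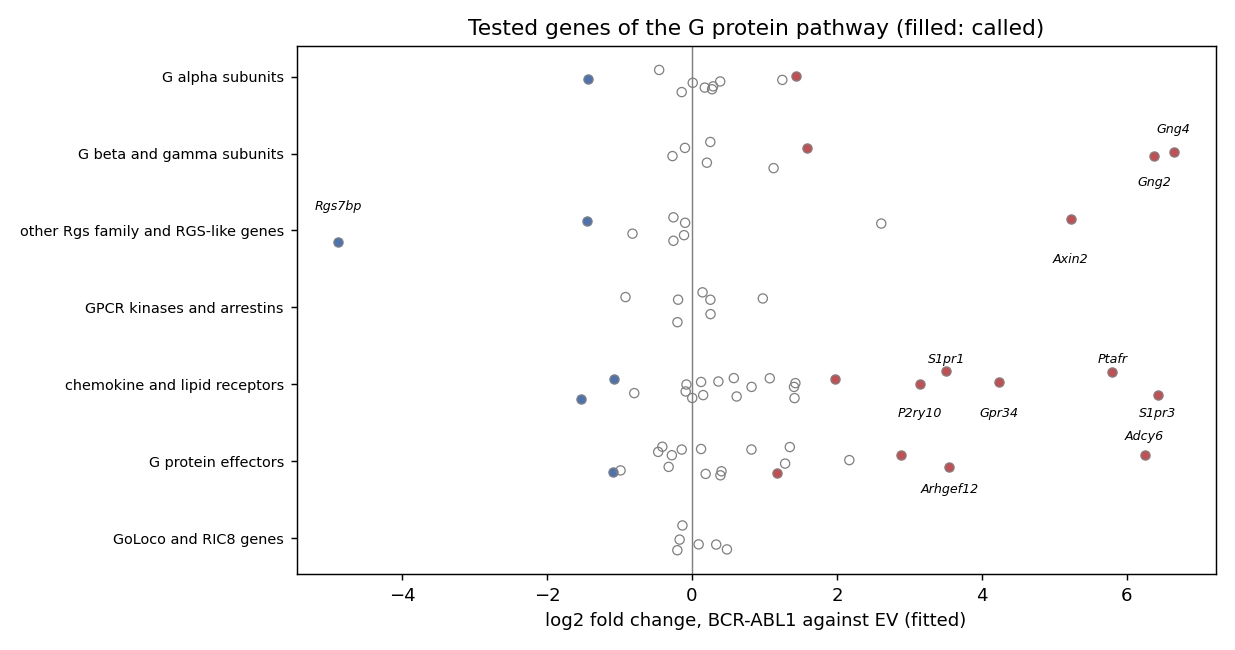
Fitted log2 fold change, BCR-ABL1 against EV, of the 81 tested genes of the G protein pathway lists, 1 row per list. Filled red points were called higher, filled blue points lower and open points were not called, and names mark called genes beyond 3 in either direction. Of 10 G alpha genes 2 were called, and 0 of the 7 kinases and arrestins and 0 of the 6 GoLoco and RIC8 genes, beside 5.99% higher and 6.49% lower of all genes tested.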

How the data were processed

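The 12 libraries were Illumina TruSeq stranded total RNA (Gold) libraries read as paired ends. The table deposited by the authors holds unnormalized whole-number counts, 1 column per line. The submitters' processing notes name GRCm38, FastQC 0.11.5, Trimmomatic 0.36, TopHat2 2.1.1, Bowtie2 2.3.2, featureCounts 1.5.3, R 3.6.1 and edgeR 3.18.1. The strand setting of the counting is not given in the sources used here.

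Statistics were run in R (4.3.3). The packages were DESeq2 (1.42.0), edgeR (4.0.16) and limma (3.58.1). Figures were made in Python (3.11.15) using matplotlib (3.10.9). Symbols, positions and lengths came from GENCODE M21, which held 51633 of the 51826 identifiers. After filterByExpr (minimum count 10) and TMM scaling, glmTreat on a quasi-likelihood fit tested for changes beyond 1.5-fold. P-values were adjusted by Benjamini and Hochberg's method over every gene tested, with a threshold of 0.05. The mouse by condition interaction was tested using glmQLFTest. Exact permutation tests were two-sided and used mean log2 CPM (prior count 2) over all labelings of the lines, or over the 400 labelings that stay within the mice, where the smallest p is 0.005. The floor of 3 counts per line covers counting error only.

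The members, the gene lists and the rule for named genes were chosen with earlier results of these data known. The rule names all 10 members, other Rgs genes if called or at a mean of at least 1 CPM in a condition, the 3 called genes of each list with the largest fold change, the genes Cxcr4, Gnai2, Gnai3, Gnaq, Gna13 and Gnas, called neighbours, and the 3 genes nearest to each of the called members, at most 2. As alternatives, RLE size factors, no filter, a filter of 1 CPM in 6 lines, likelihood ratio statistics, DESeq2, a null of no change, blocks by mouse or by line letter, the mice separately, omission of each line, CPM on total counts and the longest transcript length were tried. Leaving out EV lines 2A and 2B together was added after seeing the data.

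Lines whose names share the first digit come from the same animal. Their deviations from the condition means, compared across conditions, correlated at 0.0853 to 0.240 within a mouse and at -0.203 to -0.0636 across mice. With mouse means taken out, lines sharing a letter correlated at -0.109 to 0.0856. The mouse therefore pairs the samples, while the letter does not. The chi-square statistic per gene between any lines of a condition was at least 9.36, and none were treated as the same library. On simulated counts with 200 genes changed 4-fold, glmTreat recovered 195 and called 0 others among 14916 genes, and the interaction test recovered 180 and called 4 others among 14908. Apart from these changes, the simulated lines had the same mean and spread of a gene in every group. The numbers therefore do not cover differences between the mice or the larger spread of the EV lines of mouse 2.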

Additional observations from a re-analysis of the deposited data

Results flagged for a closer look

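In a group of 6 lines, a single value was marked where its gap to the nearest line divided by the whole range exceeded Dixon's critical value for 6 values, which chance brings about in about 1 in 20 groups. Rgs14 in EV line 2B stood at 33.2 CPM, with the next EV line at 21.6 CPM. Rgs18 in BCR-ABL1 line 2A stood at 53.5 CPM, with the next at 44.2 CPM. Rgs5, which is not among the members, stood at 94.7 CPM in EV line 2B, with the next EV line at 7.48 CPM, and at 0 CPM in BCR-ABL1 line 1C, where the other BCR-ABL1 lines had 1 count each.

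The change between the conditions differed between the mice by the interaction test for 4 members. As the log2 change in mouse 2 minus that in mouse 1, the difference was -5.10 for Rgs3, 0.77 for Rgs12, 1.44 for Rgs18 and 1.35 for Rgs19. For Rgs3 and Rgs18 the fitted change had opposite signs in the mice, although in the lines of mouse 2 alone neither was called, and in those of mouse 1 alone only Rgs3 was, and for Rgs12 and Rgs19 it had the same sign. In EV lines of mouse 2 the biological coefficient of variation was 0.386, against 0.0950 in those of mouse 1, and its part in these differences was not tested.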

How the results depend on the processing

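Rgs1 was called higher under every alternative run. Rgs18, with a change near 0, turned from -0.02 to a log2 fold change of 0.00097 with RLE, 0.010 without a filter, 0.0013 with DESeq2, 0.098 with mouse as replicate block, 0.10 with the line letter as replicate block and 0.84 in mouse 2 alone. With single lines left out it ranged from -0.16 to 0.13. In mouse 2 alone Rgs3 turned to -0.55 and Rgs14 to -0.0079. Against no change, 3389 genes were higher and 3897 lower, with 2 members higher and 2 lower. Mouse 1 alone gave 2512 genes higher and 1877 lower, with 2 members in each direction, and mouse 2 alone gave 408 genes lower and 2 members higher. With mouse as replicate block 1 member, Rgs2, was lower. It changed no other call of a member, and within the mice the exact p of Rgs10 fell to 0.015. With single lines left out, genes called higher ranged from 807 to 1353, with the highest count without EV line 2C, and members called lower ranged from 0 to 2, which were Rgs2 and Rgs12 without EV line 2C and Rgs2 without BCR-ABL1 line 2A. Members whose change differed between the mice ranged from 4 to 5. With EV lines 2A and 2B left out together, 1438 genes and 2 members were higher, and 8 members and 36% of all genes tested differed between the mice, with EV line 2C alone for mouse 2 and assumed to vary like the other groups. With CPM on total counts Rgs12 and Rgs19 overlapped between the conditions and Rgs2 did not. Without a filter Rgs16 had a log2 fold change of 1.71 at an FDR of 0.260.

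Depth limits Rgs16, Rgs9 and, in EV lines, Rgs1, each with few counts per line. With 2 mice, the spread between lines of a mouse is not the spread between animals, and p-values measure the former in part.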
